A study of Danio rerio with 17 samples.

Results

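The vegetal pole step is the comparison of segment E, the last vegetal slice of the zebrafish oocyte, with segment D, the slice next to it. It comprised 6 of the 17 RNA-seq libraries, taken by their segment labels, with 3 libraries of E (oocytes 1, 3 and 4) and 3 of D (oocytes 1, 2 and 3). Oocytes 1 and 3 gave a library of each segment, so 4 of the 6 libraries form pairs from the same cell. The comparison asks which RNAs jump or drop at the vegetal end, and whether they do so there more than elsewhere along the axis. Segment A is the animal end of the row of 5, and all libraries came from Danio rerio oocytes that were mounted, frozen and sliced on a cryostat. Columns were used to isolate total RNA, and 5.5 ng of it per library was depleted of ribosomal RNA. The labels name no strain, treatment, oocyte stage or mother. The replicates are separate oocytes, and the groups differ by position in the cell and by oocyte, since oocyte 2 enters only D and oocyte 4 only E. Because a set amount of RNA entered each library, levels are concentrations relative to the other RNAs of the slice. More molecules of an RNA and less of all other RNA in a slice cannot be told apart.

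The fish oocyte stores RNAs unevenly between its poles before fertilization. In the young oocyte, the Balbiani body, a large aggregate of mitochondria, RNA and germ plasm, carries RNAs to the vegetal cortex, and other RNAs reach the cortex later along the cytoskeleton. Vegetal RNAs and proteins include the dorsal determinants, which after fertilization are moved along parallel microtubules to the future dorsal side and there stabilize beta-catenin, and vegetal germ plasm components, which specify the germ line. Animal RNAs include regulators of the cell cycle and of early patterning.

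The 6 libraries held 4054233 to 21388370 reads in genes, lowest in D of oocyte 1, and a count of 3 reads corresponded to 0.143 to 0.722 CPM. CPM here are read counts relative to a library size scaled by the trimmed mean of M values (TMM). Spike-in RNA took at most 0.00239% of the reads in the libraries of oocyte 1 and 0.185% to 0.802% in those of the other oocytes. The test has no term for the oocyte, so values with the oocyte as a block and without oocyte 1 are given beside it. Of 15 oocyte markers, 13 were tested, and their summed level was 5315 to 6046 CPM in D and 5204 to 6069 CPM in E. Of 28 follicle cell markers, 8 were tested, summing to 191 to 351 CPM in D and 268 to 404 CPM in E, while star, fshr, amh and gata4 had 0 reads in every library. Of the blood cell markers coro1a was the 1 tested, at 0 to 12.3 CPM in D and 0 to 17.2 CPM in E. Within a segment, log2 CPM correlated across genes at 0.754 to 0.796 in D and 0.733 to 0.786 in E, and D with E at 0.665 to 0.764. Genes are not independent replicates, so these correlations describe the libraries.

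At the vegetal pole, 19 RNAs rose and 3 fell. The risers included the dorsal determinant hwa (16.4-fold between segment means), the motor linker sybu (7.16-fold), the axis genes vrtn and trim36, the contractile ring scaffold anln and the kinases map3k7 and map3k1. The genes that fell were exd2, ENSDARG00000109360 and bahcc1. These 22 genes were 0.175% of the 12549 tested, with 0.151% higher and 0.0239% lower in E, called where the quasi-likelihood test of edgeR gave a Benjamini-Hochberg adjusted p below 0.05. At an unadjusted p under 0.05, 298 genes were higher and 210 lower. In 3 groups of 4183 genes each, formed by mean level over D and E, all 19 genes that rose belonged to the highest group, above 52.8 CPM, and 12 of them rose by a log2 fold change of at least 2.00. All 3 genes that fell belonged to the middle group. The mean used for grouping includes E, so the step itself enters the placing. Means of hwa, for one, were 33.9 CPM in D and 557 CPM in E. In the lowest group, up to 10.5 CPM, edgeR called 0 genes, 150 had an unadjusted p under 0.05, limma called 0 and DESeq2 called 239 higher and 126 lower. The median SE of the log2 fold change was 3.72 in that group, against 1.59 in the middle and 0.49 in the highest, so a step in a scarce RNA was rarely detectable with edgeR.

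**Figure D1:**
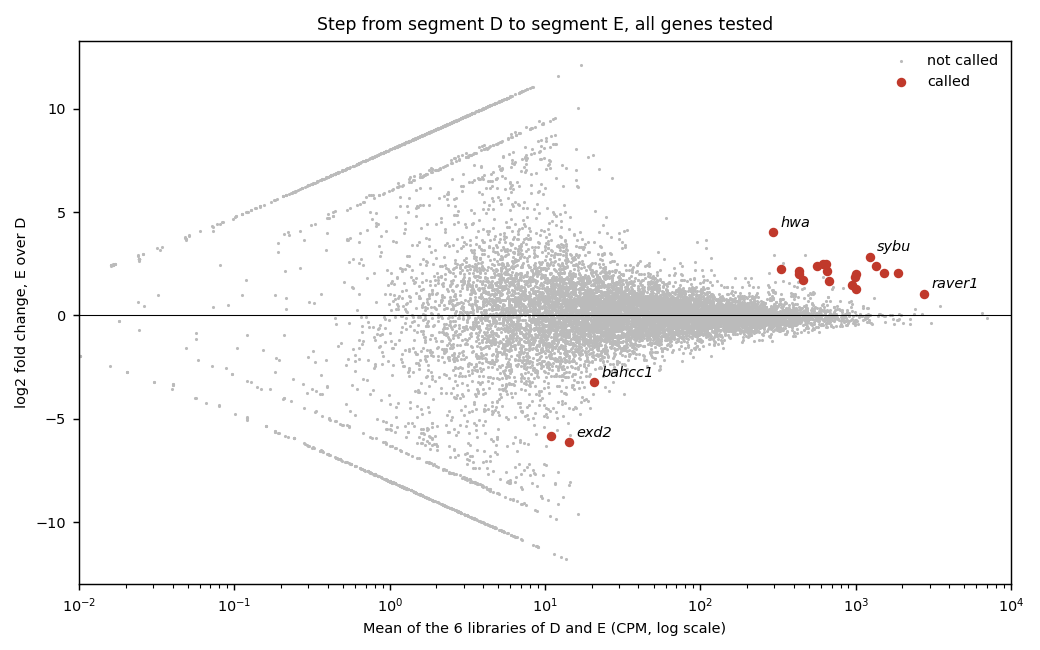
Log2 fold change of segment E over segment D (vertical axis) against the mean level over the 6 libraries of D and E (horizontal axis, CPM on a log scale) for the 12549 genes tested. Genes with a mean of 0 CPM, or too low for the range of the horizontal axis, are not drawn. Red points are the 22 genes called by edgeR; the 19 that rose lie at the right, from hwa at a log2 fold change of 4.03 to raver1 at 1.04, and the 3 that fell lie in the middle range of levels.

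The number of genes called depended on the oocyte block and on single libraries. The block is a term for the oocyte over all 17 libraries, not a test of the pairs of oocytes 1 and 3 alone. With it, 36 genes were called (0.287%), 32 higher (0.255%) and 4 lower (0.0319%), and these included all 22. Without the libraries of oocyte 1, 9 were higher and 1 lower, and 9 of these 10 were among the 22. Other tools and filters kept fewer or more of the 22 genes. DESeq2 called 21 of them, limma on the authors' values 7, edgeR with a minimum of 10 CPM over D and E 14, and edgeR on the 6 libraries of D and E alone 18. Losses are named with each gene below, out of 28 alternative analyses. Counts of higher genes were 30 without E of oocyte 3, 12 without E of oocyte 4, 30 without oocyte 2 and 30 without oocyte 3. Counts of lower genes were 1 without D of oocyte 1 and 5 without E of oocyte 4.

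Scaling also set the balance. The authors' own factors, relative to the number of reads in genes, were higher in each library of E than in each of D, which lowered the median log2 fold change of all genes from 0.05 to -0.38. Under these factors 11 genes were higher (0.0877%) and 21 lower (0.167%), so that 34.4% of the calls were higher in place of 86.4%, and 14 of the 22 genes were still called (11 higher and 3 lower). Changes below are relative to TMM scaling unless the authors' factors are named. Each of the 19 genes stayed above 0 under those factors, with log2 fold changes from 0.59 for raver1 to 3.58 for hwa.

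Transcripts of hwa (ENSDARG00000094542), which encodes Huluwa, the membrane protein required maternally for the dorsal organizer, stood at 26.2, 37.5 and 38.0 CPM in segment D of oocytes 1, 2 and 3. In segment E they reached 575, 418 and 677 CPM in oocytes 1, 3 and 4. Every library of E lay far above every library of D. The log2 fold change was 4.03 ± 0.76 (SE), with an edgeR adjusted p of 0.00228, and within the same cell E exceeded D 21.9-fold in oocyte 1 and 11.0-fold in oocyte 3. The call of hwa held in 26 of the 28 alternatives and was lost with limma (limma adjusted p = 0.515) and with the minimum of 10 CPM. Segment E held 89.4% of the sum of the 5 segment means of hwa. In the animal segment A the mean was 0.509 ± 0.483 CPM (SD, n = 4).

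Transcripts of sybu (ENSDARG00000060112), encoding syntabulin, which links cargo to a kinesin and marks the vegetal pole of the oocyte, stood at 199.6, 456 and 252 CPM in D. They reached 2514, 1538 and 2441 CPM in E. The groups did not overlap, and the log2 fold change was 2.84 ± 0.43 with an edgeR adjusted p of 6.23e-05. Within the same cell the ratio of E to D was 12.6 in oocyte 1 and 6.11 in oocyte 3. Calls for sybu held in each of the 28 alternatives.

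Transcripts of trim36 (ENSDARG00000062794), a ubiquitin ligase needed maternally for vegetal microtubules and the dorsal axis, stood at 416, 838 and 525 CPM in D. In E they reached 1972, 1277 and 4097 CPM, with the library of oocyte 4 highest. The groups did not overlap, but E varied by a factor above 3 between oocytes, and the log2 fold change was 2.05 ± 0.43 with an edgeR adjusted p of 0.0114. The call held in 21 of the 28 alternatives. It was lost without E of oocyte 4, without D of oocyte 1, without oocyte 1, under the authors' factors (edgeR adjusted p = 0.0932), with the minimum of 10 CPM, with DESeq2 and with limma (limma adjusted p = 0.274). The mean of trim36 was higher at each segment from A on, at 22.3, 54.5, 161 and 593 CPM before E.

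Transcripts of vrtn (ENSDARG00000061963), encoding vertnin, a DNA-binding protein that represses a Bmp ligand gene, stood at 216, 152 and 190.3 CPM in D. In E they were at 965, 697 and 1501 CPM, lowest in oocyte 3 and highest in oocyte 4. The groups did not overlap, and the log2 fold change was 2.50 ± 0.47 with an edgeR adjusted p of 0.00228. The call of vrtn was lost with limma (limma adjusted p = 0.124) and with the minimum of 10 CPM.

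Together with celf1 and dazl, these 4 genes make up the 6 tested members of a list of 8 RNAs with published vegetal localization. All 6 were higher in E with no overlap between groups, which held for 5.94% of all genes. Their median log2 fold change was 2.67 against 0.05 over all genes. The list rests on earlier in situ work and was assembled with results of these data known, and 4 of its 6 tested members were called higher, against 0.151% of all genes. No entry carried the name grip2a, and wnt8a did not pass the filter. Transcripts of dazl (ENSDARG00000036214), an RNA-binding protein of the germ line, went from 88.1, 161 and 80.5 CPM in D to 801, 534 and 1191 CPM in E. The groups did not overlap and the log2 fold change was 2.94 ± 0.80, but the test was not passed (edgeR adjusted p = 0.210, and 0.282 with the block). Of the 28 alternatives, 9 called dazl, among them edgeR on the 6 libraries of D and E alone and edgeR without the filter on low counts. Transcripts of celf1 (ENSDARG00000005315), an RNA-binding regulator of splicing and decay, were at 169.5, 444 and 196 CPM in D and 841, 811 and 1242 CPM in E. Its log2 fold change of 1.84 ± 0.45 missed the threshold (edgeR adjusted p = 0.0638) and passed it with the oocyte as a block, at 1.86 ± 0.36 (edgeR adjusted p = 0.000229).

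**Figure D2:**
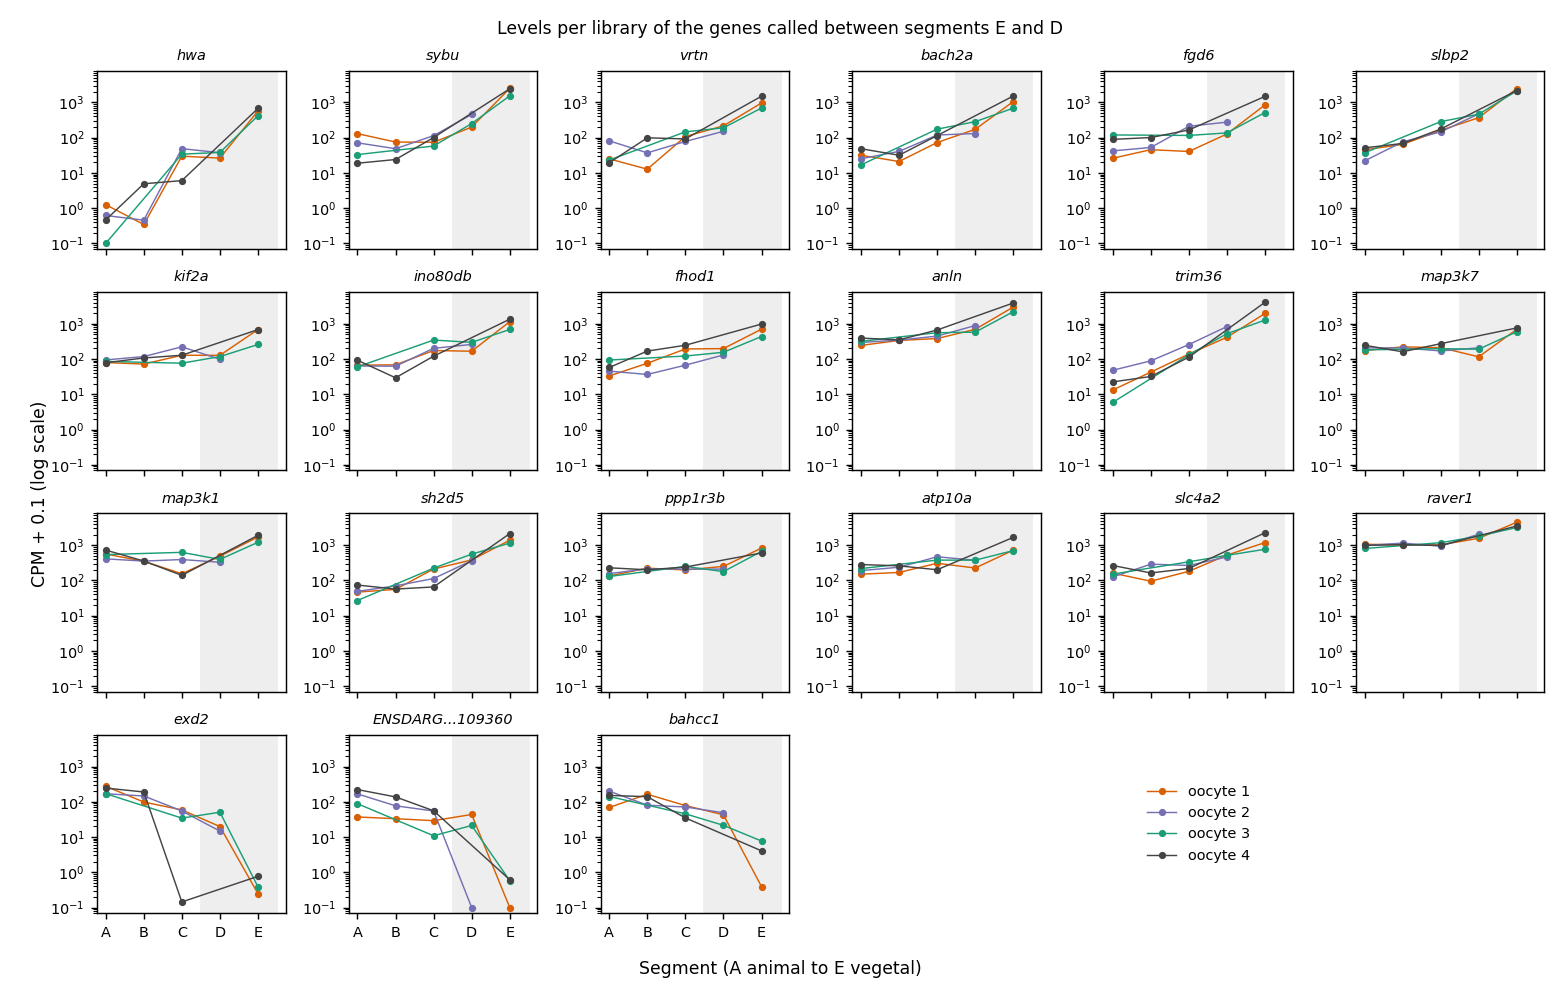
Levels of 21 of the 22 genes called between E and D in each library (vertical axis, CPM + 0.1 on a log scale) by segment from A to E (horizontal axis), with 1 line per oocyte and segments D and E shaded. In the 18 genes shown that rose, the 3 libraries of E lie above all 14 libraries of A to D; kif2a, map3k7, ppp1r3b and map3k1 run nearly flat or downward before the last step, while trim36 and slbp2 climb throughout.

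Some of the risers encode proteins of the cell cortex and the cytoskeleton. Transcripts of anln (ENSDARG00000060917), encoding anillin, which ties actin, myosin and septins together in the contractile ring, stood at 696, 893 and 579.9 CPM in D. They reached 2996, 2209.6 and 3901 CPM in E. The groups were far apart (log2 fold change 2.07 ± 0.28, edgeR adjusted p = 4.07e-06), and anln was called in each of the 28 alternatives. Transcripts of kif2a (ENSDARG00000043571), a kinesin that depolymerizes microtubules, stood at 127, 98.4 and 117 CPM in D and at 689, 259 and 686 CPM in E. The library of E from oocyte 3 was well below the other E libraries but above all of D. The log2 fold change of kif2a was 2.25 ± 0.42 (edgeR adjusted p = 0.00228), and the call was lost without oocyte 1 and with limma. Transcripts of fgd6 (ENSDARG00000045528), an exchange factor for the small GTPase Cdc42, went from 128, 276 and 137 CPM in D to 853, 518 and 1487 CPM in E. The groups did not overlap, and the log2 fold change was 2.40 ± 0.47 (edgeR adjusted p = 0.00386), lost without E of oocyte 4, with the minimum of 10 CPM and with limma. Transcripts of fhod1 (ENSDARG00000051768), a formin that organizes actin, went from 198, 131 and 156 CPM to 704, 436 and 986 CPM. Here too all of E lay above all of D, with a log2 fold change of 2.14 ± 0.45 (edgeR adjusted p = 0.0129). Its call was lost without E of oocyte 4, without oocyte 1, with the minimum of 10 CPM, with limma and under the authors' factors without the block (edgeR adjusted p = 0.0952) or with it.

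A pair of signalling kinases and an adaptor protein also rose. Transcripts of map3k7 (ENSDARG00000020469), encoding TAK1, a kinase downstream of TGF-beta and innate immune receptors, stood at 116, 208 and 190.3 CPM in D. In E they were at 701, 596 and 764 CPM, so all of E was above all of D. The log2 fold change was 2.00 ± 0.33 with an edgeR adjusted p of 0.000354, and the call was lost only without oocyte 1 among the 28 alternatives. Transcripts of map3k1 (ENSDARG00000098405), encoding MEKK1, a kinase of the JNK cascade, went from 486, 327 and 395 CPM in D to 1714, 1208 and 1902 CPM in E. The groups did not overlap, and the log2 fold change was 2.00 ± 0.35 (edgeR adjusted p = 0.000731), called in each of the 28 alternatives. Transcripts of sh2d5 (ENSDARG00000014324), an SH2-domain adaptor, went from 381, 362 and 557 CPM to 1382, 1148 and 2129.9 CPM. All of E was again above all of D, with a log2 fold change of 1.84 ± 0.36 (edgeR adjusted p = 0.00386). That call was lost without E of oocyte 4, without oocyte 1, with limma and under the authors' factors (edgeR adjusted p = 0.0763).

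Other risers bind RNA or chromatin. Transcripts of slbp2 (ENSDARG00000069428), an oocyte form of the protein that binds the stem-loop of histone mRNAs, stood at 369, 474 and 465 CPM in D and at 2475, 2134 and 2175 CPM in E. The libraries within each segment were close to each other, and the log2 fold change of 2.37 ± 0.31 had the smallest edgeR adjusted p of the step, 3.78e-06. Transcripts of bach2a (ENSDARG00000036569), a basic leucine zipper transcription factor, went from 172, 131 and 285 CPM to 1059, 690.0 and 1524 CPM. The groups did not overlap, and the log2 fold change was 2.47 ± 0.39 (edgeR adjusted p = 0.000189), lost with limma alone among the 28 alternatives. Transcripts of ino80db (ENSDARG00000062226), a subunit of the INO80 chromatin remodeller, went from 167, 260.4 and 298 CPM to 1151, 691 and 1351 CPM. Within the same cell the ratio of E to D was 6.91 in oocyte 1 and 2.32 in oocyte 3, and the log2 fold change was 2.14 ± 0.37 (edgeR adjusted p = 0.000705), lost without oocyte 1 and with limma. Transcripts of raver1 (ENSDARG00000052617), a cofactor of splicing repression, were the most abundant of the risers, at 1569, 2049 and 1799 CPM in D and 4479, 3186 and 3505 CPM in E. Its log2 fold change of 1.04 ± 0.23 (edgeR adjusted p = 0.0189) was the smallest among the risers. The call of raver1 was lost without E of oocyte 1, D of oocyte 1, D of oocyte 3, oocyte 1 or oocyte 3, with limma and with the 6 libraries of D and E alone. It was also lost under the authors' factors with or without the block, where the unblocked log2 fold change was 0.59 (edgeR adjusted p = 0.371).

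Further risers act in metabolism and transport. Transcripts of ppp1r3b (ENSDARG00000044691), which targets protein phosphatase to glycogen, went from 250.0, 210.2 and 178 CPM in D to 827, 668 and 602 CPM in E. This was the one riser whose E library of oocyte 4 was the lowest, and the log2 fold change was 1.72 ± 0.33 (edgeR adjusted p = 0.00249). It was not called without oocyte 1, without oocyte 3, with limma or under the authors' factors without the block (edgeR adjusted p = 0.0763) or with it. Transcripts of atp10a (ENSDARG00000061039), a phospholipid flippase, went from 225, 373 and 376 CPM to 721, 702 and 1665 CPM. The library of oocyte 4 was more than 2 times the others of E, and the log2 fold change of 1.66 ± 0.34 (edgeR adjusted p = 0.00893) was not called without it, without D of oocyte 1, without oocyte 1, without oocyte 4, with limma or under the authors' factors without the block (edgeR adjusted p = 0.121) or with it. Transcripts of slc4a2 (ENSDARG00000052330), an anion exchanger, went from 524, 464 and 515 CPM to 1185, 767 and 2256 CPM. Its log2 fold change of 1.49 ± 0.35 had the largest adjusted p of the risers (edgeR adjusted p = 0.0463) and was called in 15 of the 28 alternatives. Among those that lost it were each that left out E of oocyte 4, any 1 library of D, oocyte 1 or oocyte 4, limma, the minimum of 10 CPM and the authors' factors (edgeR adjusted p = 0.254).

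The order of the E libraries was alike over the risers. The library of E from oocyte 3 was the lowest of the 3 in 18 of the 19 genes (94.7%), and that from oocyte 4 was the highest in 14 (73.7%). Over the 2677 genes that averaged 100 CPM or more across D and E, the library of oocyte 3 was the lowest in 31.9% and that of oocyte 4 the highest in 29.5%. Over the 224 of these genes whose 3 libraries of E all lay above D, the 19 included, the shares were 47.8% and 44.2%. Relative to the mean of D, the median fold over the risers was 2.87 in E of oocyte 3, 4.26 in oocyte 1 and 5.40 in oocyte 4. How far each slice reached along the axis is not given in the labels, and its part in this order was not tested.

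The 3 RNAs that fell were scarce in E. Transcripts of exd2 (ENSDARG00000016117), an exonuclease, stood at 19.7, 14.7 and 50.5 CPM in D and at 0.147, 0.287 and 0.668 CPM in E, the latter resting on 1, 6 and 13 reads. The segments did not overlap, and the log2 fold change was -6.14 ± 1.00 with an edgeR adjusted p of 0.000245. When only the 6 libraries of D and E were fitted, exd2 was not called (edgeR adjusted p = 0.752). Segment C of oocyte 4 also held only 1 read of exd2, so a near absence was not confined to E. In segment A the level of exd2 was 215 ± 54.2 CPM (SD, n = 4). The entry ENSDARG00000109360, which has no symbol, stood at 43.6, 0 and 21.2 CPM in D and 0, 0.479 and 0.514 CPM in E. D of oocyte 2 had 0 reads, so the groups overlapped, although the log2 fold change was -5.85 ± 1.25 (edgeR adjusted p = 0.0129). Its call was lost without D of oocyte 1, without oocyte 1, without oocyte 4, with limma and with the minimum of 10 CPM, and it did not pass the filter in the 6 libraries alone. Transcripts of bahcc1 (ENSDARG00000080009), a chromatin protein with a BAH domain, went from 42.6, 48.7 and 21.4 CPM to 0.293, 7.61 and 3.96 CPM. Every library of E was below every library of A to D, which held for 0.175% of all genes and for 1 of these 3, and E was below D in 2 of the 3 and in 4.3% of all genes. For bahcc1 the log2 fold change was -3.22 ± 0.75 (edgeR adjusted p = 0.0447). It was called in 16 of the 28 alternatives. Among those that lost it were each that left out E of oocyte 1 or 4, D of oocyte 1 or 2, or any of oocytes 1, 2 and 4, the minimum of 10 CPM and the 6 libraries alone.

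The oocyte block added 13 genes higher in E and 1 lower, which the test without the block did not call. Among the 10 of these with the largest rise were an amino acid transporter, slc38a7, a sulfatase that edits heparan sulfate, sulf1, the scaffold grip2, the beta-catenin partner lef1, and celf1, described above. Transcripts of slc38a7 (ENSDARG00000012002) went from 25.5, 8.65 and 14.0 CPM in D to 163, 207 and 238 CPM in E. The groups were far apart, with a blocked log2 fold change of 4.08 ± 1.05 (edgeR adjusted p = 0.0370, and 0.0899 unblocked). Transcripts of sulf1 (ENSDARG00000038428) went from 119, 131 and 54.0 CPM to 469, 379.6 and 899 CPM, with a blocked log2 fold change of 2.67 ± 0.49 (edgeR adjusted p = 4.89e-05, and 0.0568 unblocked). Transcripts of grip2 (ENSDARG00000087187), one of the entries that share this symbol and encode a scaffold with PDZ domains, went from 77.8, 41.9 and 90.1 CPM to 403, 376 and 807 CPM. The groups did not overlap, and the blocked log2 fold change was 2.49 ± 0.56 (edgeR adjusted p = 0.00389, and 0.412 unblocked). Segment E held 82.9% of the sum of the 5 segment means of this grip2 entry. Transcripts of lef1 (ENSDARG00000031894) went from 215, 249.7 and 146 CPM to 712, 482 and 829 CPM, with a blocked log2 fold change of 2.09 ± 0.44 (edgeR adjusted p = 0.000990, and 0.825 unblocked).

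The others of these 10 were tmem104, tsc22d2, stk17al, rtn4a and mast3b, a membrane protein, a transcriptional regulator, a kinase, a reticulon that shapes the endoplasmic reticulum and a microtubule-associated kinase. Their blocked log2 fold changes were 1.85 ± 0.41 for tmem104, 1.72 ± 0.36 for tsc22d2, 1.71 ± 0.34 for stk17al, 1.44 ± 0.36 for rtn4a and 1.44 ± 0.32 for mast3b. In all 5 genes each library of E exceeded each library of D, which held for 5.94% of all genes. The blocked test that picked these genes already used those libraries. Without the block their edgeR adjusted p-values were 0.0638, 0.261, 0.157, 0.227 and 0.0568 in the same order. The gene added as lower in E was ccdc102a (ENSDARG00000003872), a coiled-coil protein, at 7.95, 56.3 and 26.8 CPM in D and 1.76, 3.35 and 24.5 CPM in E. The groups overlapped, and in each paired oocyte E was below D, at 0.221 of its level in oocyte 1 and 0.125 in oocyte 3. Its blocked log2 fold change was -1.83 ± 0.45 (edgeR adjusted p = 0.0200, and 0.611 unblocked). Of the 28 alternatives, the block among them, sulf1 was called in 15, celf1 and mast3b in 13, tmem104 in 10, stk17al in 9, grip2 in 6, rtn4a and ccdc102a in 5, and slc38a7, lef1 and tsc22d2 in 4.

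Whether a change belonged to the vegetal pole alone was asked with tests of the difference between steps. For (E minus D) minus (D minus C), edgeR called 0 of 12549 genes, with 265 differences above 0 and 341 below 0 at an unadjusted p under 0.05. A difference above 0 can come from a rise at the last step or from an earlier fall that did not go on. DESeq2 called 302 above 0 and 131 below, and limma on the authors' values 0 and 2. With the oocyte as a block, edgeR called 2 genes (0.0159%), thy1 above 0 (log2 difference 2.18, edgeR adjusted p = 0.0178) and exd2 below 0 (log2 difference -5.64, edgeR adjusted p = 0.00443).

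Against the mean of the 3 steps from A to D, 5 genes were called (0.0398%), 4 with a difference above 0 (0.0319%) and 1 below 0 (0.00797%). These were anln, map3k7, map3k1, thy1 and exd2. For map3k7 the means from A to E were 202, 197, 213, 171 and 687 CPM. The level was flat until D, and the last step exceeded the mean earlier step by 2.08 ± 0.41 on the log2 scale (edgeR adjusted p = 0.0194). For map3k1 the means were 560.3, 353, 328, 403 and 1608 CPM. Here A was above D, and the difference of steps was 2.16 ± 0.43 (edgeR adjusted p = 0.0194). For anln the means went through 313, 345, 514 and 723 to 3036 CPM, and the difference of steps was 1.67 ± 0.33 (edgeR adjusted p = 0.0194).

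Transcripts of thy1 (ENSDARG00000035018), a cell surface protein held by a lipid anchor, went the other way before the last step. The means from A to D were 1795, 1091, 454 and 184 CPM, a log2 fold change of -3.29 from A to D (edgeR adjusted p = 3.88e-09). In the libraries of D thy1 stood at 194, 84.1 and 274 CPM and in those of E at 312, 456 and 353 CPM. All of E lay above all of D, but the step itself did not pass the test (log2 fold change 1.02 ± 0.34, edgeR adjusted p = 0.684). The difference from the mean earlier step did, at 2.12 ± 0.43 (edgeR adjusted p = 0.0242). For exd2 the last step was below the mean earlier step by -5.16 ± 1.03 on the log2 scale (edgeR adjusted p = 0.0194). With the block, 8 genes were called (0.0638%), 6 above 0 (0.0478%) and 2 below (0.0159%), adding sybu (log2 difference 2.31, edgeR adjusted p = 6.87e-06), the spindle pole protein cspp1 (3.01, edgeR adjusted p = 0.0174) and ENSDARG00000109360 (-5.77, edgeR adjusted p = 0.00402). Like thy1, cspp1 fell before the last step, with unblocked log2 fold changes of -4.36 from A to D and 1.48 for E over D. Its step from D to E was not called. Without oocyte 1, edgeR called 0 differences in either direction, with 262 above 0 and 151 below at an unadjusted p under 0.05. Under the authors' factors edgeR called 0 differences above 0, with 97 at an unadjusted p under 0.05, and 68 below 0. DESeq2 gave 330 above and 139 below, and limma on the authors' values 3 and 105. Counts of differences above 0 were 11 without E of oocyte 3, 2 without E of oocyte 4, 1 without D of oocyte 1, 8 without D of oocyte 3, 7 without oocyte 2 and 11 without oocyte 3.

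**Figure D3:**
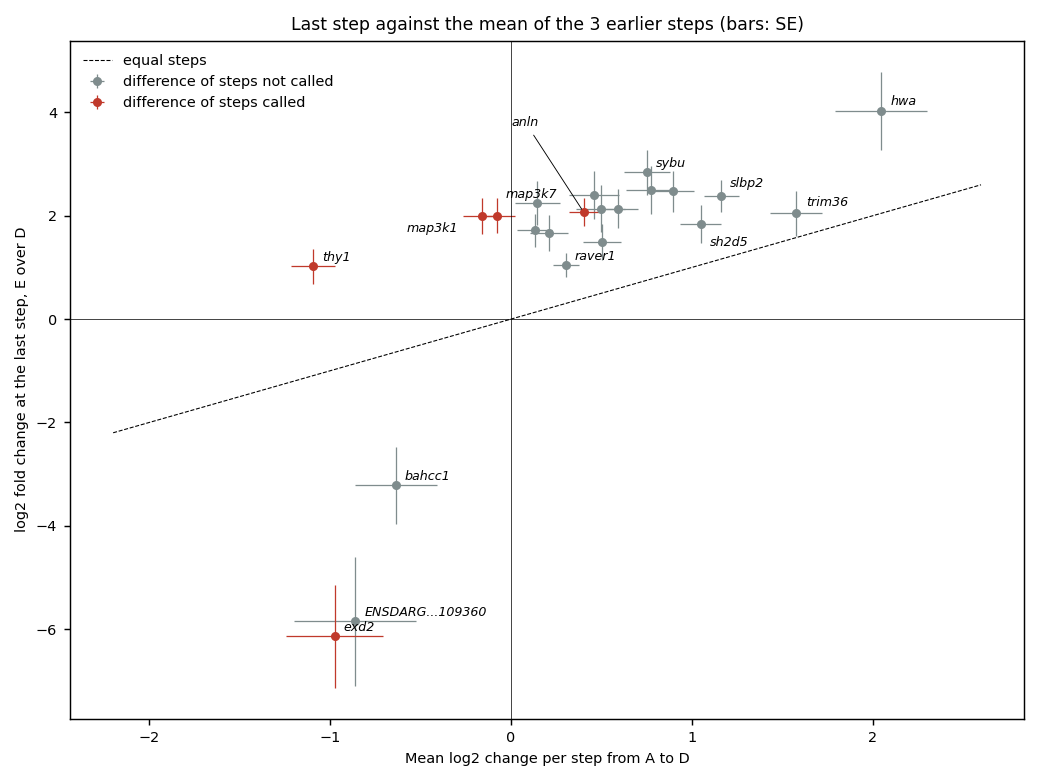
Log2 fold change of the last step, E over D (vertical axis), against the mean log2 change per step from A to D (horizontal axis) for 21 of the 22 genes called between E and D and for thy1, with bars of 1 SE. Points above the dashed line have a higher log2 change at the last step than per earlier step. Each axis uses the libraries of D, with opposite sign, so the axes are not independent. Red marks the 5 genes whose difference of steps was called. Left of 0 stand map3k1, map3k7 and thy1, and also exd2, ENSDARG00000109360 and bahcc1, which fell at the last step too.

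Most of the risers were already higher in C than in A. The comparison of C with A shares no library with that of E with D, but both come from the same fit and share oocytes. Of the 19 genes, 18 were higher in C than in A, 6 of them called, against 0.104% of all genes called higher in C. That share covers genes at every level, while all 19 belonged to the highest group by level. Their median log2 fold change of C over A was 0.72, against -0.01 over all genes. The 6 called were hwa at 5.94 ± 0.75 (edgeR adjusted p = 7.70e-07), trim36 at 2.84 ± 0.39 (edgeR adjusted p = 3.87e-06), slbp2 at 2.31 ± 0.27 (edgeR adjusted p = 1.16e-07), bach2a at 1.98 ± 0.34 (edgeR adjusted p = 0.000410), sh2d5 at 1.64 ± 0.31 (edgeR adjusted p = 0.00224) and ino80db at 1.58 ± 0.32 (edgeR adjusted p = 0.00461). The exception in sign was map3k1, at -0.77 ± 0.29 (edgeR adjusted p = 0.604). All 3 genes that fell were lower in C than in A, at -2.54 ± 0.71 for exd2, -1.78 ± 0.88 for ENSDARG00000109360 and -1.29 ± 0.60 for bahcc1, none of which passed the test that called 0.167% of all genes lower in C (edgeR adjusted p = 0.145, 0.612 and 0.604). The profiles fell into patterns that are given here as descriptions. In hwa the mean went from 1.81 CPM in B to 29.6 in C, stood at 33.9 in D and was 557 in E, so that the means moved in 2 jumps with a level stretch between C and D. From B to C, hwa went from 0.244 to 29.8 CPM in oocyte 1 and from 0.355 to 48.7 CPM in oocyte 2. In oocyte 4 it went only from 4.83 to 5.95 CPM. In slbp2 the means were 38.9, 69.5, 192, 436 and 2261 CPM, a climb at every step. In ppp1r3b they were 162, 212, 224, 213 and 699 CPM, nearly level before E. In all 19 risers each library of E lay above all 14 libraries of A to D, which held for 1.09% of all genes tested. A position of E above D alone, which the test for the 19 already used, held for 5.94% of all genes.

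The listed germ plasm RNAs showed no called step. This list leaves out dazl, a germ line gene counted above with the vegetal RNAs, whose log2 fold change was 2.94 ± 0.80. Of 7 published germ plasm RNAs, all were tested and 0 were called by edgeR, 1 had an unadjusted p under 0.05, and DESeq2 and limma also called 0. Their median log2 fold change was 0.10 against 0.05 over all genes. Transcripts of dnd1 (ENSDARG00000022813), an RNA-binding protein that protects germ line RNAs, were at 312, 262 and 208 CPM in D and 605, 449.8 and 461 CPM in E. Of the 7 listed genes, dnd1 was the 1 with no overlap between groups, as was also seen for dazl outside this list. Over all genes, E lay above D without overlap in 5.94%. The log2 fold change of dnd1 was 0.96 ± 0.40 (edgeR adjusted p = 0.825). Transcripts of buc (ENSDARG00000096095), encoding Bucky ball, the organizer of the Balbiani body and germ plasm, were at 1276, 1830.3 and 1505 CPM in D and 1602, 1553 and 1384 CPM in E. The groups overlapped, with a log2 fold change of -0.02 ± 0.23 (edgeR adjusted p = 1). The other values were 0.10 ± 1.70 for the translational repressor nanos3, 0.22 ± 0.80 for the helicase ddx4 (Vasa), 0.08 ± 0.35 and -0.28 ± 0.41 for the Tudor proteins tdrd7a and tdrd6, and 0.35 ± 0.44 for the carbonic anhydrase ca15b. Levels of nanos3 were 20.9 to 38.3 CPM in D and 22.6 to 33.9 CPM in E. Its wide SE comes from the fit over all 17 libraries and does not measure the spread in D and E alone. With that SE the test could not detect a change of several-fold, while the SE of buc was 0.23.

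Published animal RNAs also showed no called step. Of the 4 tested, edgeR, DESeq2 and limma each called 0 between E and D, and edgeR gave 0 at an unadjusted p under 0.05. Their median log2 fold change was 0.11. Transcripts of pou5f3 (ENSDARG00000044774), a pluripotency factor, had means of 2756 CPM in A and 1356 in C. They stood at 543, 690.3 and 568 CPM in D and 564, 679.9 and 569 CPM in E, ranges that overlap almost fully, with a log2 fold change of 0.01 ± 0.23 (edgeR adjusted p = 1). Transcripts of ccnb1 (ENSDARG00000051923), cyclin B, gave 0.30 ± 0.26, those of gdf3 (ENSDARG00000037995), a TGF-beta ligand, 0.21 ± 0.27, and those of cpeb1 (ENSDARG00000008454), a regulator of poly(A) tails, -0.38 ± 0.29. The means of gdf3 from A to E were 592, 755, 595, 611 and 709 CPM, with no fall from A to D.

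The pathway in which the dorsal determinants act had no called gene in the filtered test over all 17 libraries without the block. Of 22 tested genes of the maternal beta-catenin pathway, 10 were higher and 12 lower in E, and the median of their log2 fold changes was -0.13. Every library of E lay below every library of D in 4 of the 22, against 4.3% of all genes, and above in 1, against 5.94%. None of the 22 was called by edgeR, DESeq2 or limma with this filter, over all 17 libraries and without the block (0 genes each). In edgeR 1 was higher and 1 lower at an unadjusted p under 0.05. The highest was lef1, described above, which was called with the block, without the filter on low counts and when only the 6 libraries were fitted, and the lowest was the kinase gsk3b (ENSDARG00000017803) at -2.45 ± 3.06, on 12.5, 31.8 and 8.99 CPM in D and 0, 9.67 and 0.0514 CPM in E. The libraries of gsk3b were scattered in each segment and overlapped. Proteins of RNA granules behaved alike, with 17 of 33 tested entries higher, a median of 0.08 and 0 edgeR calls (2 higher at an unadjusted p under 0.05, 1 DESeq2 call, tdrd5, and 0 with limma). Among members with at least 10 CPM the highest was fmr1 (ENSDARG00000037433), a translational repressor, at 1.40 ± 1.40, and the lowest the Tudor gene tdrd12 (ENSDARG00000075217) at -0.88 ± 0.95. Of 17 tested entries for microtubule motors and adaptors, 12 were lower, with a median of -0.25 and 0 edgeR calls (1 lower at an unadjusted p under 0.05, 1 DESeq2 call in each direction, 0 with limma). The highest member with at least 10 CPM was the dynein chain dync1i2a (ENSDARG00000078386) at 1.56 ± 0.94 and the lowest the dynein adaptor bicd2 (ENSDARG00000075571) at -1.61 ± 2.62. The called kinesin kif2a was not on that list.

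Of 74 tested ribosomal protein entries, 57 (77.0%) were higher in E, against 52.3% of all genes. Their median log2 fold change was 0.58, against 0.05 over all genes. Under the authors' factors it was 0.14, against -0.38 over all genes. With those factors 43 of the 74 entries were higher, against 4337 of the 12549 genes. EdgeR called 0 of them (2 higher and 2 lower at an unadjusted p under 0.05), DESeq2 1 in each direction and limma 0. Among those with at least 10 CPM the highest was rpl27 (ENSDARG00000015128) at 3.91 ± 2.43 and the lowest rpl34 (ENSDARG00000029500) at -1.97 ± 1.52. Oocyte markers had a median of 0.22, from figla (-1.13) to zp3 (0.78) among members with at least 10 CPM, and follicle cell markers a median of 0.36, from foxl2 (-2.05) to cdh2 (0.61). None of the 13 and 8 tested members was called by edgeR, DESeq2 or limma (0 genes each), and edgeR gave 0 at an unadjusted p under 0.05 in each list. Of the 8 follicle cell markers, 5 were higher in E, and their part in the step was not tested. The steroidogenic gene cyp11a1 stood at 62.6, 155 and 105 CPM in D and 114, 198 and 149.8 CPM in E, overlapping between the segments but higher in E within oocytes 1 and 3. For cyp17a1 the values were 35.6, 71.9 and 47.7 CPM in D and 38.7, 40.2 and 45.3 CPM in E, which also overlapped. Of the 13 mitochondrially encoded mRNAs, none had more than 1 read in any library. They could not be compared between the segments, and whether the counting left them out was not tested.

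**Figure D4:**
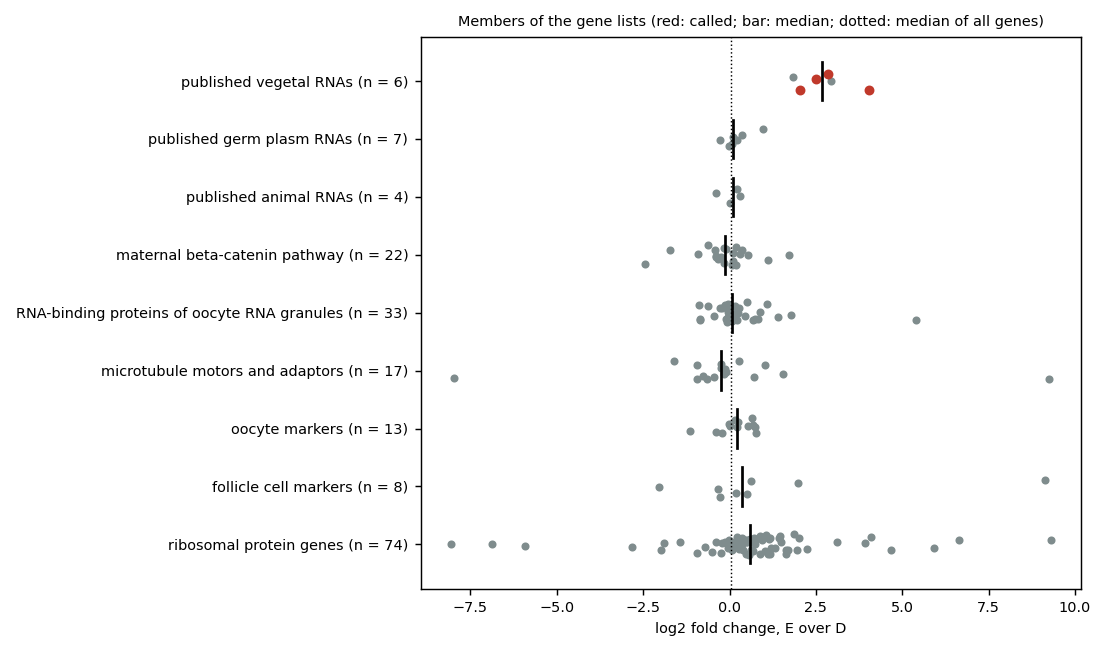
Log2 fold change of E over D (horizontal axis) for the tested members of each gene list (rows, with the number of members tested); red points were called by edgeR, bars are medians of the lists and the dotted line is the median of all genes. The published vegetal RNAs lie between 1.84 and 4.03, with 4 of 6 called, and the medians of the other lists lie between -0.25 and 0.58.

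Under the authors' factors, 18 genes were called lower in E that TMM scaling did not call. They were sf3b1, rev3l, epg5, znf106, foxh1, sec24c, fxr2, smarcc1, bptf, chaf1b, cad, supt6h, cbl, eif4g3, wnk1a, espl1, huwe1 and chd8, named because the scaling decides them. Among them are the splicing factor sf3b1, the chromatin remodelling subunits smarcc1, bptf and chd8, and foxh1, a partner of Smad proteins in Nodal signalling. With TMM scaling their log2 fold changes ran from -1.96 for sf3b1 to -0.82 for chd8, and with the authors' factors from -2.42 to -1.27. All 18 were thus below 0 under each scaling, and the adjusted p-values of edgeR with TMM were between 0.221 for sf3b1 and 0.825 for chd8. Mean levels of foxh1 were 97.8 CPM in D and 40.9 CPM in E, and those of sf3b1 were 187 CPM in D and 47.9 CPM in E. How the authors' factors were set is not given in the sources used here, and which scaling is closer to the amounts in the slices was not tested.

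**Figure D5:**
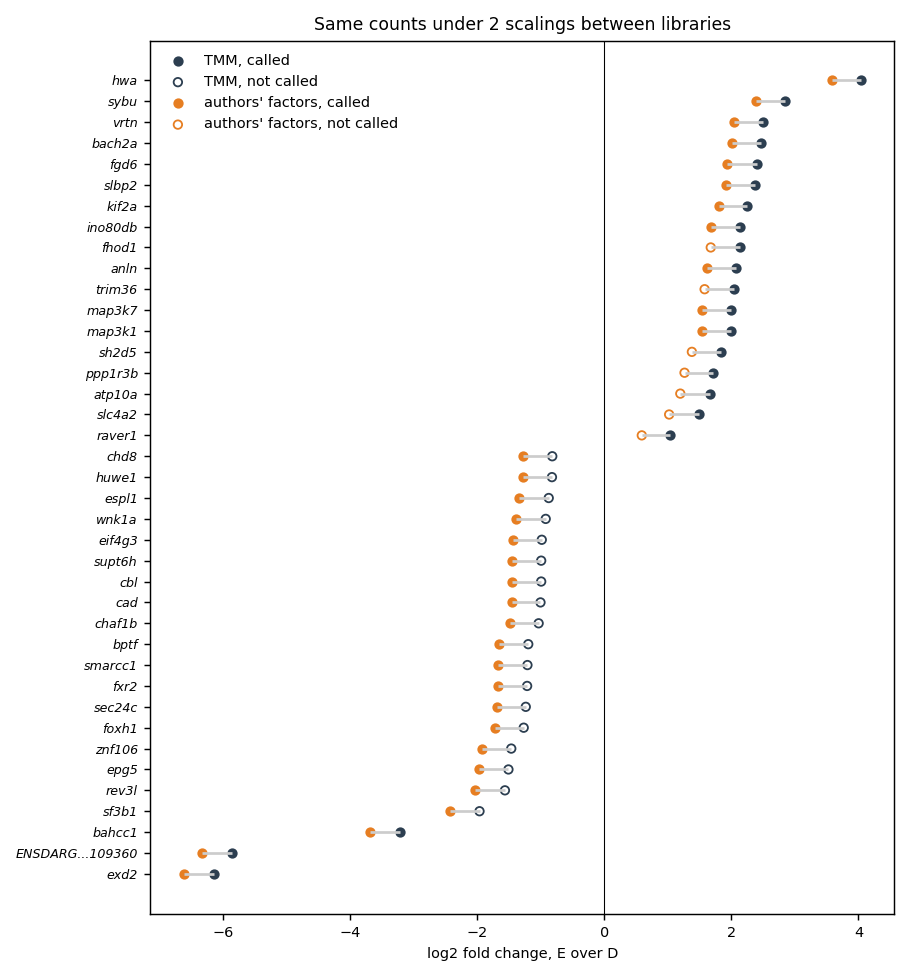
Log2 fold change of E over D (horizontal axis) for 39 of the 40 genes called under TMM or under the authors' factors (rows), with TMM values in dark blue, values under the authors' factors in orange, and open circles where the gene was not called. Each gene keeps its side of 0, the values under the authors' factors lie to the left, and 14 genes are called under each scaling.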

How the data were processed

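RNA-seq libraries of 5 segments from 4 zebrafish oocytes were deposited as raw counts, whole numbers of reads per Ensembl gene, spike-in and summary entry, made by the authors. Per the submitters' processing notes, Trimmomatic, STAR 2.5.3a, HTSeq and DESeq2 were used with the build GRCz11, and their settings, including strand, are not given in the sources used here. A second deposited table holds normalized signal, the authors' counts over 1 factor per library; after rescaling, 100% of its values equalled the counts within 0.01.

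Spike-in and summary entries (6.88% to 14.2% of entries were reads with more than 1 alignment) were kept out, which leaves genes with near-identical copies and overlapping genes uncertain. Symbols matched 29201 of 32520 identifiers (89.8%), and paralogs can share one. No genome or sequence was used. Genes retained by filterByExpr with a minimum count of 10 (12549, holding 99.8% of reads) were scaled by TMM and tested 2-sided in edgeR 4.0.16 (R 4.3.3) with 1 coefficient per segment over all 17 libraries, Benjamini-Hochberg adjusted, called under 0.05. The SE is the absolute log2 fold change over the square root of F. Alternatives used DESeq2 1.42.0 and limma 3.58.1 (log2 of the authors' values plus 1), other filters, scalings and left-out libraries. The models were tested on simulated counts.

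Libraries with the same oocyte number come from 1 cell, so the numbers pair them. Over 2677 genes with at least 100 CPM, deviations from segment means correlated with a median of 0.058 in 28 pairs from the same oocyte (-0.078 to 0.32) and -0.029 in 87 pairs from different oocytes. For D with E the values were 0.133 in oocyte 1 and 0.112 in oocyte 3. For D with A, B or C of the same oocyte they ran from -0.078 to 0.028. The highest, 0.32, was between B and C of oocyte 4, which has no D here. Named genes were all those called between E and D or in a difference of steps, the 10 largest per direction called with the block and not without it, and the tested published vegetal, germ plasm and animal RNAs; other lists give their extremes at 10 CPM or more. Of the 22 genes called between E and D, 1 enters the counts but is not reported here. These members and lists were chosen with earlier results of these data known. Segment B of oocyte 3, D of oocyte 4 and E of oocyte 2 were not analysed here. The level of 3 reads covers counting error only, while the SE rests on the spread between libraries.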

Additional observations from a re-analysis of the deposited data

Results flagged for a closer look

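Among 46 sets of 4 libraries, segments A and C for each called gene, 1 library stood far from the others. The level of vrtn in segment A of oocyte 2 was 81.2 CPM, against 19.3 to 24.9 CPM in the other 3 oocytes, a gap large for its range by Dixon's criterion. Chance alone would set apart about 2.3 of 46 such sets. This library lies outside the comparison of E with D.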

How the results depend on the processing

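In E against D, the counts of genes higher and lower (19 and 3) became 11 and 21 with the authors' factors, 317 and 156 with DESeq2, 6 and 41 with limma, 33 and 6 without the filter, and 37 and 0 (185 lower at an unadjusted p under 0.05) when only the 6 libraries were fitted. With the oocyte as a replicate block 32 were higher, with the block and the authors' factors 51 were lower, and with a minimum of 10 CPM 1 was lower. For the last step against the step from C to D, differences above and below 0 (0 and 0) became 302 and 131 with DESeq2, 1 and 1 without the filter, and 1 and 1 with the block; those below were 2 with limma and 8 with the block and the authors' factors. Against the mean earlier step, those above and below 0 (4 and 1) became 0 and 68 with the authors' factors, 330 and 139 with DESeq2, 9 and 2 without the filter, and 0 and 0 with a minimum of 10 CPM (186 and 148 at an unadjusted p under 0.05); those below were 105 with limma, 2 with the block and 95 with the block and the authors' factors. Leaving out each library of A, C, D and E or each oocyte in turn gave 9 to 30 higher and 1 to 5 lower genes, 0 to 5 differences above and 0 to 1 below 0 against the step before, and 0 to 11 above and 0 to 2 below against the mean step. Single libraries of B were not left out. Leaving out libraries of A or C was chosen after seeing the data. The cause of these shifts was not tested. Of the values of named genes under alternatives, 1153 kept direction and side of the threshold, 122 lost and 99 gained a call, and 48 changed sign. The 22 called genes were not among those that changed sign.

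Sign changes fell on uncalled published genes. With the authors' factors, limma, and the block with the authors' factors in that order, the log2 fold change was -0.36, -0.34 and -0.34 for nanos3, -0.24, -0.28 and -0.54 for ddx4, -0.38, -0.39 and -0.50 for tdrd7a, -0.10, -0.10 and -0.31 for ca15b, -0.45, -0.44 and -0.35 for pou5f3, -0.16, -0.15 and -0.082 for ccnb1, and -0.25, -0.24 and -0.26 for gdf3. It was -0.028 for pou5f3 with library sizes alone and -0.0045 with a minimum of 10 CPM, 0.0012 for buc without the filter, and with the block 0.081 for buc, -0.074 for ddx4 and -0.042 for tdrd7a. The same leave-outs gave -0.12 to 0.14 for pou5f3, -0.069 to 0.55 for nanos3, -0.45 to 0.65 for ddx4, -0.18 to 0.28 for tdrd7a, -0.041 to 0.67 for ca15b, -0.18 to 0.14 for buc and -0.75 to 0.011 for tdrd6.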
